A study of Mus musculus with 6 samples.

Results

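Fatty acid oxidation, ketogenesis and PPAR-alpha target genes were examined in the intestine of mice that lack SHP (SHP-KO) and of wild-type (WT) mice. The set was a list of 37 genes, matched by gene symbol in the count files, and 36 of them had at least 10 counts summed over the 6 libraries. The exception was Cyp4a14, which had no count in any library. All 36 passed the filter on low counts and were tested, among 12106 tested genes of 23284 in the files. No measured value was used to choose them, but they were chosen with earlier results of these data known. Of the 36, 19 were taken as mitochondrial, 11 as peroxisomal and 6 as neither.

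SHP, the small heterodimer partner, is a nuclear receptor without a DNA-binding domain that represses other transcription factors, and it is encoded by Nr0b2. RNA came from jejunum and ileum of male mice aged 8 weeks, with 3 libraries from SHP-KO mice and 3 from WT mice. Mice of both genotypes had been fasted overnight and fed again for 6 h before sampling. The labels give neither the tissue share of jejunum and ileum nor whether each library is a different animal, and the p-values therefore reflect scatter among these 6 libraries that may be technical.

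Mitochondria oxidise long-chain fatty acids after the carnitine shuttle has carried them across the inner membrane, by repeated rounds of dehydrogenation, hydration, a second dehydrogenation and thiolytic cleavage. Peroxisomes shorten very long and branched chains by an analogous route whose first step makes hydrogen peroxide. PPAR-alpha, a nuclear receptor for fatty acids that binds DNA as a heterodimer with RXR, induces genes of both routes in fasted liver and in the small intestine, where dietary fat is a source of its ligands.

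The total count was 7956528, 9289543 and 8862048 in SHP-KO replicates 1 to 3 and 13511800, 11265437 and 13089989 in WT replicates 1 to 3. Nr0b2, on chromosome 4 from 133109305 to 133112451 (mm9), had 1, 0 and 0 counts in SHP-KO libraries and 31, 14 and 23 counts in WT libraries. Across genes, which are not independent replicates, libraries of 1 genotype correlated at r = 0.991 to 0.995, against 0.928 to 0.929 for pairs that cross genotypes. Enterocyte markers were abundant in both genotypes, with summed levels of 87622 to 88487 CPM (counts scaled to library size) in SHP-KO and 79720 to 82249 CPM in WT libraries, and 6 of 11 were higher and 4 lower. Higher and lower mean an adjusted p under 0.05 in edgeR's quasi-likelihood test, by which 35.2% of all tested genes were higher and 35.4% lower.

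Markers of intestinal segment and of other cell types moved with the genotype, against a background of 35.2% of all tested genes higher and 35.4% lower. Of 12 ileum markers 10 were lower and 2 higher, with summed levels of 5009 to 5079 CPM in SHP-KO and 21895 to 22164 CPM in WT libraries. Of 9 tested proximal markers 8 were higher and 1 lower, at 4953 to 5074 CPM in SHP-KO and 749 to 778 CPM in WT libraries. All 13 smooth muscle markers were higher (1648 to 1676 CPM in SHP-KO, 437 to 442 CPM in WT), as were 6 of 8 tested fibroblast markers (83.4 to 87.9 CPM in SHP-KO, 30.2 to 30.4 CPM in WT). All 4 tested adipocyte markers were higher as well, at 25.4 to 31.2 CPM in SHP-KO and 2.45 to 4.02 CPM in WT libraries, and Lep was at 0 in WT. All 8 B cell markers were lower, at 1.15 to 1.38 CPM in SHP-KO and 77.5 to 82.6 CPM in WT libraries, with Cr2, Faim3 and Fcer2a at 0 in SHP-KO. All 4 tested neuron and glia markers and 6 of 7 T cell markers were higher. Of 5 tested endothelial markers 3 were higher and 1 lower. Of 4 tested macrophage markers 2 were higher and 1 lower, with the summed level at 35.6 to 38.4 CPM in SHP-KO and 85.1 to 87.1 CPM in WT libraries. Of 5 goblet and Paneth cell markers 2 were higher and 3 lower, at 4918 to 5051 CPM in SHP-KO and 1725 to 1771 CPM in WT libraries. Markers of liver and pancreas stayed at or below 5.73 CPM in every library, and both tested colon markers were lower. The part of these shifts in the results below was not tested, a different share of jejunum and ileum cannot be told apart from SHP loss, and in bulk tissue fewer cells of a type cannot be told apart from less RNA per cell.

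The genes of this pathway did not move as a block. In SHP-KO, 13 of the 36 were higher, 16 were lower and 7 did not pass an adjusted p of 0.05 in edgeR's quasi-likelihood test. Of all tested genes, 70.6% passed the same test, 35.2% higher and 35.4% lower, so the members' share of 80.6% was read against a background in which most genes differed. The members' changes had a median size of 0.31 on the log2 scale, smaller than the 0.42 over all tested genes. A comparison with genes of similar abundance was not made. Only Cyp4a10 and Angptl4 differed by at least 2-fold, where 20% of all tested genes were called at that size, and 9 members differed by at least 1.5-fold, where the share of all tested genes was 37.1%. The signed median was -0.05 for the members and -0.01 for all tested genes. CPM of the genotypes did not overlap for 31 of 36 members, and for 72% of all tested genes. These calls rest on a small spread between libraries, since the median coefficient of variation (CV) of the members was 2.90% in SHP-KO and 2.48% in WT. The authors' deposited table passes 8 members at a false discovery rate (FDR) under 0.05, among 34.6% of its 12939 genes. In the authors' deposited table these are Cyp4a10, which was higher, and Cpt1a, Acads, Echs1, Acox2, Pdk4, Angptl4 and Ppara, which were lower.

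**Figure D1:**
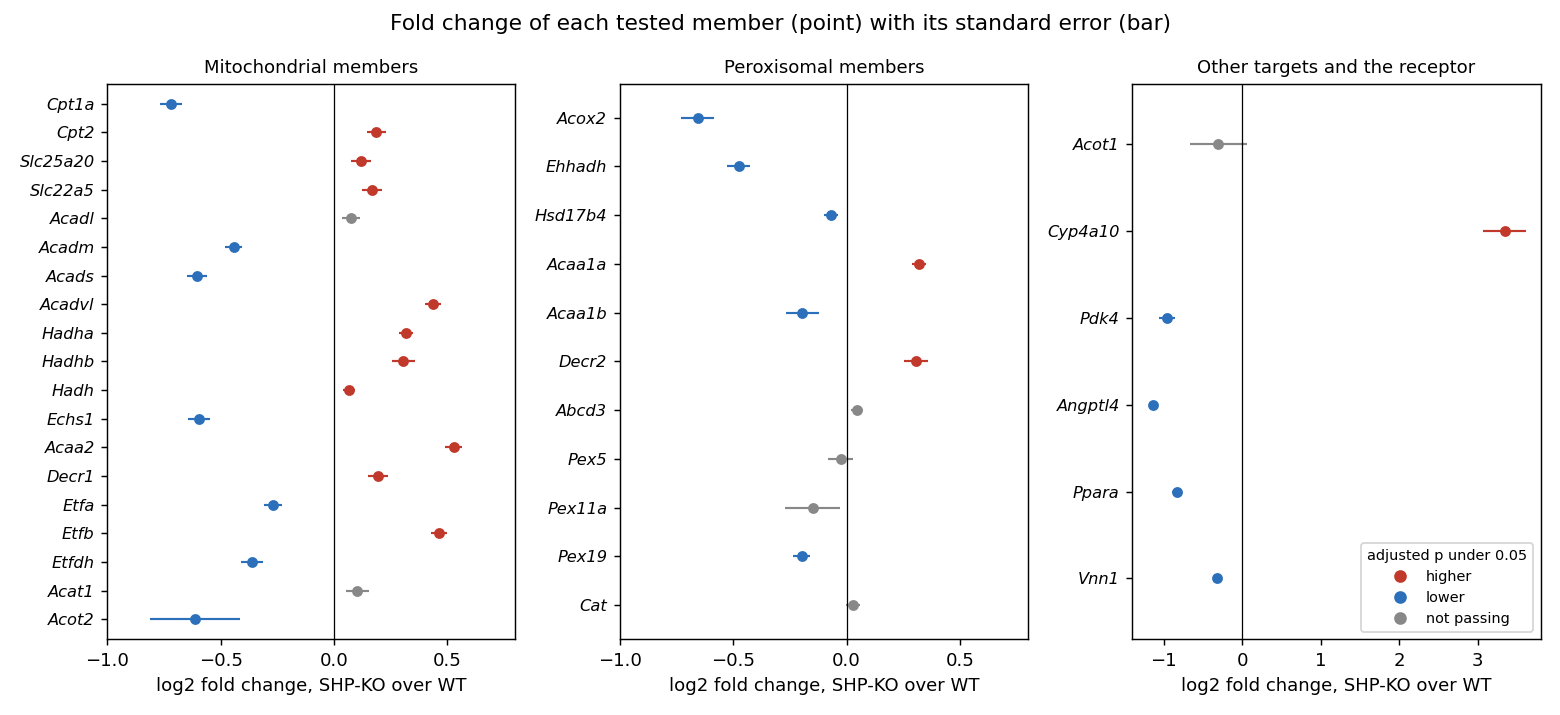
Log2 fold change of each tested member, SHP-KO over WT (x axis), with its standard error as a bar, in panels for mitochondrial, peroxisomal and other members. Mitochondrial values run between -0.72 and 0.53 and peroxisomal values between -0.66 and 0.32, while Cyp4a10 stands at 3.35.

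The receptor itself and 3 of its target genes that lie outside both oxidation routes were lower. Ppara, which encodes PPAR-alpha, on chromosome 15 from 85565994 to 85637281 (mm9), had 43.4, 39.0 and 43.9 CPM in SHP-KO libraries and 75.5, 76.7 and 72.8 CPM in WT libraries. All SHP-KO libraries lay below all WT libraries, at log2 -0.83 (SE 0.059, adjusted p 5.0e-23, edgeR quasi-likelihood test). Angptl4, a secreted inhibitor of lipoprotein lipase, on chromosome 17 from 33911845 to 33918520 (mm9), had 145, 147 and 151 CPM in SHP-KO libraries and 329, 326 and 316 CPM in WT libraries. The groups were far apart relative to their scatter, with means of 147 ± 2.88 CPM in SHP-KO and 323 ± 6.64 CPM in WT (SD, n = 3 each). Its level was thus 2.19-fold lower in SHP-KO (log2 -1.13, SE 0.034, adjusted p 6.0e-48, edgeR).

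Pdk4, a kinase that switches off pyruvate dehydrogenase and so spares glucose, on chromosome 6 from 5433351 to 5446278 (mm9), had 10.9, 8.64 and 11.7 CPM in SHP-KO libraries and 20.4, 19.4 and 20.7 CPM in WT libraries. The genotypes did not overlap (log2 -0.96, SE 0.11, adjusted p 3.4e-13, edgeR), although the 267 counts of SHP-KO and 774 of WT make it one of the less deeply counted members. Vnn1, a pantetheinase that is an abundant PPAR-alpha target in mouse liver, had 294, 277 and 288 CPM in SHP-KO libraries and 358, 347 and 365 CPM in WT libraries. It was lower (log2 -0.32, SE 0.031, adjusted p 1.7e-15, edgeR), a smaller difference than those of Angptl4 and Pdk4.

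Cyp4a10, a fatty acid omega-hydroxylase and in mouse liver a strongly induced PPAR-alpha target, went the other way. It had 44, 53 and 63 counts in SHP-KO libraries (5.60, 5.80 and 7.22 CPM) and 6, 10 and 7 counts in WT libraries (0.438, 0.877 and 0.529 CPM). The transcript was scarce in WT, the lowest of all 36 members per length at 0.295 RPKM (CPM per kilobase of exon), against 2.97 RPKM in SHP-KO. It rose by log2 3.35 (SE 0.27, adjusted p 2.1e-19, edgeR), the largest of any member in either direction. It lies on chromosome 4 from 115190892 to 115206254 (mm9), and 12.7% of its 100-base windows also occur in transcripts of Cyp4a32, so that its reads may be incomplete. Acot1, a cytosolic acyl-CoA thioesterase, had 8, 11 and 7 counts in SHP-KO and 14, 16 and 18 counts in WT libraries, levels at which a difference was not detectable at this depth (1.01 ± 0.20 CPM in SHP-KO, 1.26 ± 0.21 CPM in WT, SD, n = 3 each, adjusted p 0.45, edgeR). Cyp4a14, the neighbouring omega-hydroxylase gene, gave no count in either genotype.

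**Figure D2:**
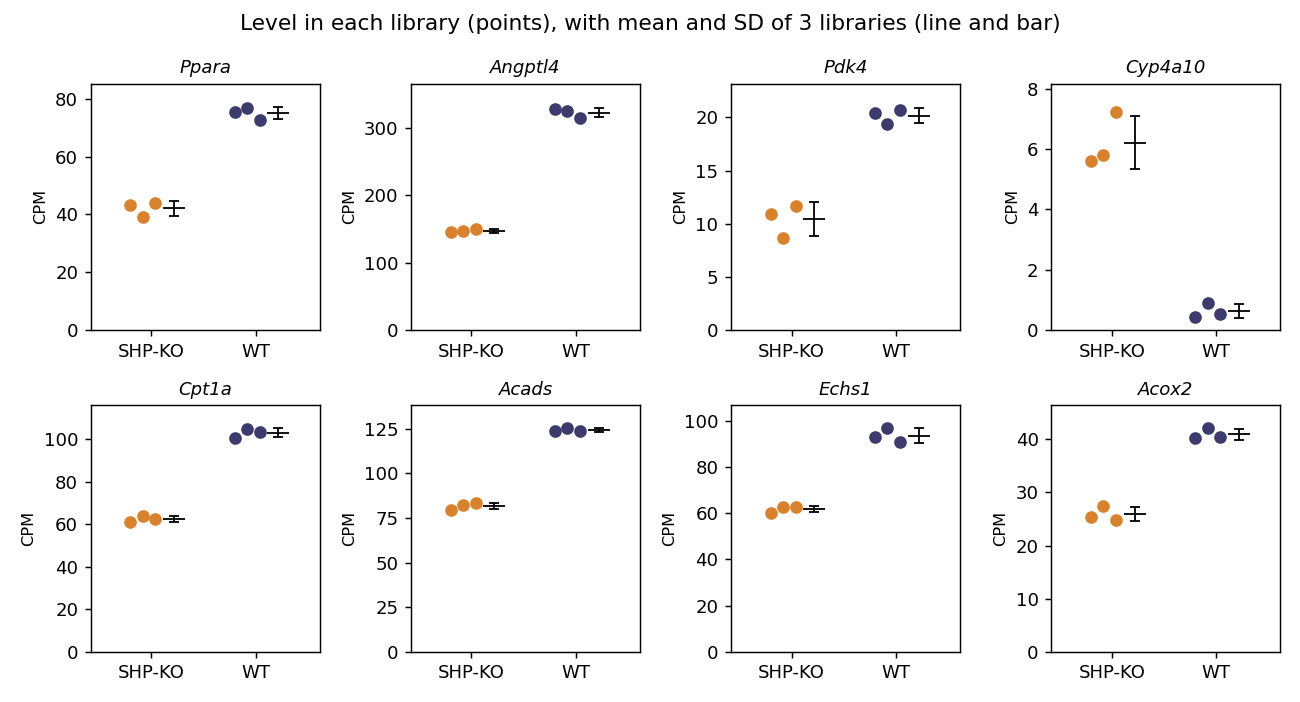
CPM per library (points; y axis from 0) of Ppara, Angptl4, Pdk4, Cyp4a10, Cpt1a, Acads, Echs1 and Acox2, the members that also pass in the authors' deposited table, for SHP-KO and WT, with the mean and SD of 3 libraries beside them. In each panel the genotypes are separate, and Cyp4a10 is the panel in which the SHP-KO libraries are the higher ones.

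Among genes that bring fatty acids into mitochondria, the entry enzyme was lower and the later carriers were slightly higher. Cpt1a, which makes acylcarnitine at the outer membrane and is the regulated step of the pathway, had 61.1, 64.0 and 62.6 CPM in SHP-KO libraries and 101, 105 and 104 CPM in WT libraries. Its levels did not overlap and were 1.65-fold lower in SHP-KO (log2 -0.72, SE 0.049, adjusted p 4.2e-24, edgeR), the largest difference among the 19 mitochondrial members. The gene spans 3323301 to 3385733 on chromosome 19 (mm9). Cpt2, which restores acyl-CoA inside the matrix, had 128, 151 and 151 CPM in SHP-KO libraries and 127, 127 and 125 CPM in WT libraries (log2 0.19, adjusted p 6.9e-05, edgeR). SHP-KO replicate 1 lay close to the WT libraries while the other two SHP-KO libraries were higher.

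Slc25a20, the carnitine-acylcarnitine exchanger of the inner membrane, had 111, 116 and 106 CPM in SHP-KO and 105, 104 and 99.3 CPM in WT libraries (log2 0.12, adjusted p 0.014, edgeR). This small difference did not pass without SHP-KO replicate 2 (log2 0.08) or without WT replicate 3 (log2 0.09), nor with DESeq2 (log2 0.12), without scaling factors (log2 0.08) or with looser filters (log2 0.07 and 0.06). Slc22a5, which takes up carnitine at the plasma membrane and is counted here with the shuttle, had 119, 113 and 116 CPM in SHP-KO and 104, 108 and 99.1 CPM in WT libraries (log2 0.17, adjusted p 4.2e-04, edgeR), and 13.7% of its 100-base windows also occur in Slc22a21.

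Of the 4 acyl-CoA dehydrogenases among the members, which carry out the first oxidation step, 1 was higher, 2 were lower and 1 did not pass. The share of all tested genes that passed was 70.6%, 35.2% higher and 35.4% lower. In the list of other mitochondrial oxidation genes, named after their values were seen, the acyl-CoA dehydrogenase genes Acadsb and Acad11 had log2 fold changes of 0.38 (higher) and -0.30 (lower), while Acad9, Acad10 and Acad12, at -0.24, 0.18 and -0.33, did not pass. Acadvl, for very long chains, had 251, 252 and 245 CPM in SHP-KO libraries and 186, 187 and 179 CPM in WT libraries. It was higher in every SHP-KO library (log2 0.44, SE 0.034, adjusted p 1.4e-20, edgeR). Acadl, for long chains, had 158, 159 and 151 CPM in SHP-KO and 144, 152 and 149 CPM in WT libraries. These values overlapped and the difference did not pass (log2 0.07, adjusted p 0.074, edgeR), though it did without SHP-KO replicate 3 (log2 0.10).

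Acadm and Acads were lower. Acadm, for medium chains, had 132, 130.4 and 131 CPM in SHP-KO libraries and 184, 178 and 174 CPM in WT libraries (log2 -0.44, SE 0.038, adjusted p 1.5e-18, edgeR). Acads, for short chains, on chromosome 5 from 115560308 to 115569322 (mm9), had 79.7, 82.3 and 83.3 CPM in SHP-KO libraries and 124, 126 and 124 CPM in WT libraries (log2 -0.61, SE 0.044, adjusted p 2.7e-22, edgeR). Neither gene showed any overlap between genotypes. Per length, the ratio of Acadvl to Acadm was 1.62, 1.65 and 1.60 in SHP-KO and 0.867, 0.901 and 0.879 in WT libraries, so that Acadvl was above Acadm in every SHP-KO library and below it in every WT library. The ratio of Acadvl to Acads was 2.68, 2.61 and 2.50 in SHP-KO and 1.28, 1.27 and 1.23 in WT libraries.

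The electrons of this step pass through a flavoprotein of paired subunits, whose mRNAs moved in opposite directions. Etfa, the alpha subunit, had 134, 142 and 129.7 CPM in SHP-KO libraries and 159, 174 and 157 CPM in WT libraries (log2 -0.27, adjusted p 7.2e-09, edgeR). Etfb, the beta subunit, had 244, 240.3 and 258 CPM in SHP-KO libraries and 176, 183 and 179.9 CPM in WT libraries (log2 0.46, SE 0.035, adjusted p 1.4e-21, edgeR). The ratio of Etfa to Etfb per length was 0.306, 0.329 and 0.279 in SHP-KO and 0.505, 0.529 and 0.487 in WT libraries, with no overlap. For Etfb, 65.2% of the 100-base windows also occur in transcripts that the GENCODE annotation gives to Gm45233 at the same locus, but no other gene of the count files overlaps its exons. Etfdh, which hands the electrons to ubiquinone, had 77.2, 72.2 and 73.1 CPM in SHP-KO and 96.3, 90.8 and 98.3 CPM in WT libraries, and was lower without overlap (log2 -0.36, adjusted p 2.3e-10, edgeR).

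The later steps of long chains belong to the trifunctional protein, and both of its subunits were higher. Hadha, the alpha subunit with hydratase and dehydrogenase activity, had 339, 356 and 344 CPM in SHP-KO libraries and 277, 279.7 and 277 CPM in WT libraries (log2 0.32, SE 0.031, adjusted p 8.9e-16, edgeR). Hadhb, the beta subunit with thiolase activity, had 86.5, 79.0 and 84.3 CPM in SHP-KO libraries and 66.3, 67.2 and 68.6 CPM in WT libraries (log2 0.30, SE 0.051, adjusted p 1.3e-07, edgeR). In contrast to the flavoprotein, the Hadha to Hadhb ratio per length overlapped between genotypes, at 1.99, 2.29 and 2.07 in SHP-KO and 2.12, 2.11 and 2.05 in WT libraries. Of the Hadhb windows, 52.8% also occur in Gm13910, annotated as a processed pseudogene, so the Hadhb level, and with it this ratio, may miss reads. For Hadha, 77 of its 3835 exon bases overlap Fam59b on the other strand, and unstranded counting cannot tell those reads apart.

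The genes Hadha and Hadhb face away from each other, and in RefSeq (GRCm38.p6, a later build than that of the counts) their start sites on chromosome 5 lie 272 bases apart, at 30154980 on the minus strand and 30155253 on the plus strand. The sequence between them is shown because it precedes both genes of the pair that moved together. Given is the plus strand from 30155003 to 30155252 (chr5:30155003-30155252), the 250 bases before the Hadhb start, with the GC box GGGCGG in capitals where it reads forward.

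Hadhb: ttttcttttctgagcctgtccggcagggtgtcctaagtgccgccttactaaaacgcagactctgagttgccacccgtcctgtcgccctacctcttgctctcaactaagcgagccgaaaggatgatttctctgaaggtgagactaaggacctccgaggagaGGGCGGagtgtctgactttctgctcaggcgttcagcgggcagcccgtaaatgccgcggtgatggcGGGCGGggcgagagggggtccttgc

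The GC box was searched on both strands from 250 bases before to 50 bases after each RefSeq start. At least 1 match was found for 20 of the 28 members with a RefSeq promoter. Some members have more than 1 promoter, and counted per promoter 21 of 32 held a match, against 35.7% of all 32851 promoters. The printed sequence holds 2 forward matches, at -90 and -25 from the Hadhb start, and only the one at -90 lies in the 228 bases that the windows of both genes share. A match is a description of letters, not of a bound site.

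The remaining matrix enzymes were divided. Echs1, the short-chain enoyl-CoA hydratase, on chromosome 7 from 147291622 to 147302322 (mm9), had 60.2, 62.6 and 62.8 CPM in SHP-KO libraries and 93.0, 97.0 and 90.9 CPM in WT libraries, with no overlap (log2 -0.60, SE 0.050, adjusted p 7.6e-19, edgeR). Acaa2, a matrix thiolase, had 205, 216 and 214 CPM in SHP-KO libraries and 139.9, 154 and 148 CPM in WT libraries, the largest rise of the mitochondrial members (log2 0.53, SE 0.037, adjusted p 3.3e-23, edgeR). The SHP-KO libraries were all below the WT libraries for Echs1 and all above them for Acaa2.

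Hadh, the dehydrogenase for medium and short chains, was the most abundant member per length in both genotypes, at 461 RPKM in SHP-KO and 440.1 RPKM in WT. Its 795, 803 and 781 CPM in SHP-KO and 776, 741 and 754 CPM in WT libraries differed little (log2 0.07, adjusted p 0.018, edgeR). That call was lost without SHP-KO replicate 2 (log2 0.05), WT replicate 2 (log2 0.04) or WT replicate 3 (log2 0.06), without scaling factors (log2 0.03), and with looser filters (log2 0.02 and 0.0067). Decr1, a reductase needed for unsaturated chains, was slightly higher, with 128, 118 and 122 CPM in SHP-KO and 115, 103 and 104 CPM in WT libraries (log2 0.19, adjusted p 6.1e-05, edgeR).

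**Figure D3:**
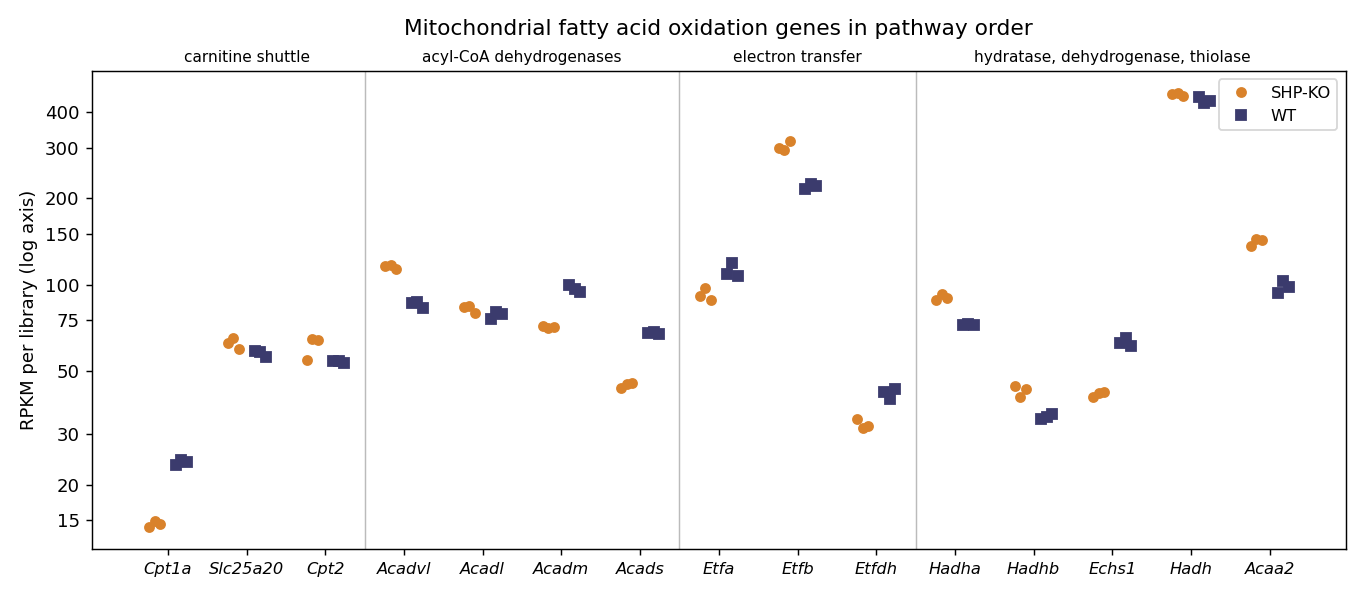
RPKM per library (y axis, log scale) of 15 mitochondrial members in the order of the pathway, with SHP-KO as circles and WT as squares. Cpt1a, Acadm, Acads, Etfa, Etfdh and Echs1 are lower in SHP-KO without overlap, Acadvl, Etfb, Hadha, Hadhb and Acaa2 are higher, and Hadh is the most abundant.

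The mitochondrial members outside the oxidation steps were of low effect or low count. Acat1, a thiolase of ketone body and isoleucine metabolism, had 70.4, 73.0 and 69.0 CPM in SHP-KO and 65.8, 65.6 and 66.4 CPM in WT libraries. The groups did not overlap, yet the difference did not pass (log2 0.10, adjusted p 0.073, edgeR). Acot2, a matrix acyl-CoA thioesterase, had 24, 32 and 26 counts in SHP-KO and 65, 62 and 60 counts in WT libraries, which is 3.18 ± 0.28 CPM in SHP-KO and 4.91 ± 0.47 CPM in WT (SD, n = 3 each). It was lower (log2 -0.61, SE 0.20, adjusted p 0.0045, edgeR), and 17.1% of its 100-base windows also occur in Acot1.

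Peroxisomal oxidation enzymes were 4 lower and 2 higher of 6, where 35.4% of all tested genes were lower and 35.2% higher. Acox2, the oxidase for branched chains and bile acid intermediates, on chromosome 14 from 9058025 to 9091533 (mm9), had 25.5, 27.5 and 24.9 CPM in SHP-KO libraries and 40.3, 42.1 and 40.4 CPM in WT libraries. It did not overlap (log2 -0.66, SE 0.072, adjusted p 2.2e-13, edgeR) and was the largest peroxisomal difference. Ehhadh, the bifunctional hydratase and dehydrogenase of straight chains and a PPAR-alpha target in mouse liver, had 69.1, 63.8 and 70.1 CPM in SHP-KO libraries and 91.6, 96.3 and 94.4 CPM in WT libraries (log2 -0.48, SE 0.049, adjusted p 1.6e-14, edgeR). Hsd17b4, the other bifunctional enzyme, of branched chains, had 336, 319 and 321 CPM in SHP-KO and 349, 337 and 337 CPM in WT libraries (log2 -0.07, adjusted p 0.041, edgeR). The Hsd17b4 call was lost without SHP-KO replicate 2 (log2 -0.06), SHP-KO replicate 3 (log2 -0.06) or WT replicate 1 (log2 -0.06), and with DESeq2 (log2 -0.07).

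The last peroxisomal step, thiolytic cleavage, is encoded by a pair of close copies in the mouse, and they diverged. Acaa1a had 464, 435 and 468 CPM in SHP-KO libraries and 355, 378 and 363 CPM in WT libraries (log2 0.32, SE 0.030, adjusted p 2.9e-16, edgeR). Acaa1b had 30.5, 30.2 and 29.3 CPM in SHP-KO libraries and 36.4, 33.1 and 33.3 CPM in WT libraries (log2 -0.19, adjusted p 0.014, edgeR), a call lost without WT replicate 1 (log2 -0.15) and with DESeq2 (log2 -0.19). Per length, Acaa1a exceeded Acaa1b 14.4-, 13.7- and 15.2-fold in SHP-KO and 9.24-, 10.8- and 10.3-fold in WT libraries, without overlap. Between 21.6% and 22.6% of the 100-base windows of each copy occur in the other, so both values are uncertain to that extent. Decr2, the peroxisomal dienoyl-CoA reductase, was higher, with 74.7, 74.8 and 73.2 CPM in SHP-KO and 59.97, 58.9 and 60.9 CPM in WT libraries (log2 0.31, adjusted p 2.9e-07, edgeR).

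Genes for the peroxisome itself were close to the WT level. Abcd3, an importer of fatty acids into peroxisomes, had 557, 547 and 548 CPM in SHP-KO and 534, 525 and 540.5 CPM in WT libraries (log2 0.05, adjusted p 0.12, edgeR). Cat, the catalase that removes hydrogen peroxide, had 351, 360.0 and 343 CPM in SHP-KO and 344, 345 and 345 CPM in WT libraries, which overlapped (log2 0.03, SE 0.030, adjusted p 0.40, edgeR). The sign of both genes turned under another filter, and that of Cat without scaling factors as well.

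Pex5, the receptor that imports matrix proteins, had 61.7, 59.1 and 62.3 CPM in SHP-KO and 62.3, 63.7 and 60.6 CPM in WT libraries (log2 -0.03, SE 0.056, adjusted p 0.68, edgeR). Pex11a, which takes part in peroxisome proliferation, had 9.16, 10.3 and 11.2 CPM in SHP-KO and 10.6, 11.8 and 11.8 CPM in WT libraries (log2 -0.15, SE 0.12, adjusted p 0.27, edgeR). Both overlapped between genotypes. Pex19, a chaperone of peroxisomal membrane proteins, was the one of these 5 that passed, with 144, 138 and 134 CPM in SHP-KO and 163, 159 and 155 CPM in WT libraries (log2 -0.20, adjusted p 3.9e-06, edgeR).

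The compartments were compared by their counts and medians, without a test. The 19 mitochondrial members had 10 higher, 7 lower and 2 not passing (median log2 fold change 0.10). The 11 peroxisomal members had 2 higher, 5 lower and 4 not passing, with a median of -0.07. The difference of the medians was 0.17, and the ranges of the compartments overlapped over most of their width. No spread of this difference for other gene sets of these sizes was computed. Further oxidation genes, described below, had a median of -0.30 in both the mitochondrial and the peroxisomal list. Over all tested genes, 35.2% were higher and 35.4% lower, and the median size of a change was 0.42 on the log2 scale. Averaged over members, log2 CPM of the mitochondrial set was 6.82 ± 0.015 in SHP-KO and 6.86 ± 0.020 in WT libraries, and that of the peroxisomal set was 6.64 ± 0.0076 in SHP-KO and 6.74 ± 0.0082 in WT libraries (SD, n = 3 each). The gap between the sets, mitochondrial minus peroxisomal, was thus 0.18 ± 0.023 in SHP-KO and 0.12 ± 0.013 in WT libraries. The mean and the median of the mitochondrial set differed in sign, since its average fell slightly below WT while its median member was above. Summed CPM, which follows the abundant members, was 3202 ± 29.0 in SHP-KO and 3030 ± 25.0 in WT for the mitochondrial set, and 2091 ± 30.4 in SHP-KO and 2046 ± 4.22 in WT for the peroxisomal set.

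As a measure of other enzymes of the mitochondrial matrix, 17 genes of the citric acid cycle had 8 higher, 7 lower and 2 not passing (median log2 fold change -0.0021). Their summed level was 8395 ± 37.0 CPM in SHP-KO and 6776 ± 90.1 CPM in WT libraries (SD, n = 3 each). Mean log2 CPM of the mitochondrial members minus that of the cycle was -1.23 ± 0.014 in SHP-KO and -1.13 ± 0.013 in WT libraries. The cycle genes with the smallest p were Dlst and Ogdh, subunits of the oxoglutarate dehydrogenase complex, and Cs, citrate synthase. Cs had 2163, 2189 and 2167 CPM in SHP-KO and 1609, 1644 and 1625 CPM in WT libraries (log2 0.42, adjusted p 1.9e-29, edgeR), and the log2 fold changes of Dlst and Ogdh were 0.68 and 0.58.

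Other genes of the same routes, from lists drawn up beside the members, held more lower than higher genes, while the list of other PPAR-alpha targets held more higher ones. The background over all tested genes was 35.2% higher and 35.4% lower. Of 15 other mitochondrial oxidation genes, 4 were higher, 7 lower and 4 did not pass (median -0.30), and the 3 with the smallest p were Acot9, a thioesterase (log2 -1.07), Crat, carnitine acetyltransferase (log2 0.47), and Pccb, a propionyl-CoA carboxylase subunit (log2 -0.42). Of 19 other peroxisomal oxidation genes, 6 were higher, 11 lower and 2 did not pass (median -0.30). Slc27a2, which activates very long chains, was 3.09-fold higher (85.9 ± 6.95 CPM in SHP-KO, 27.8 ± 1.13 CPM in WT, SD, n = 3 each). Pecr, trans-2-enoyl-CoA reductase, was 3.10-fold lower (8.80 ± 1.10 CPM in SHP-KO, 27.2 ± 1.247 CPM in WT). Of 15 other genes listed for peroxisome biogenesis, some of which have other roles, 5 were higher, 6 lower and 4 did not pass (median -0.02). Among them were Pex6, an ATPase that recycles the import receptor (log2 0.65), and Pex7, a second import receptor (log2 -0.47).

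Genes that make or use ketone bodies were divided. Of 7 tested, 3 were higher and 4 lower, with a median of -0.52, where 35.2% of all tested genes were higher and 35.4% lower. Oxct1, which activates acetoacetate in tissues that burn ketone bodies, had 17.7, 21.0 and 20.4 CPM in SHP-KO libraries and 75.4, 79.2 and 75.1 CPM in WT libraries (log2 -1.95, SE 0.069, adjusted p 4.0e-43, edgeR). Aacs, the cytosolic acetoacetyl-CoA synthetase, had 10.8, 8.09 and 10.2 CPM in SHP-KO libraries and 42.1, 41.7 and 42.8 CPM in WT libraries (log2 -2.13, SE 0.091, adjusted p 3.0e-37, edgeR). Bdh1, which interconverts acetoacetate and 3-hydroxybutyrate in mitochondria, had 54.2, 55.6 and 58.4 CPM in SHP-KO libraries and 82.7, 74.5 and 83.1 CPM in WT libraries (log2 -0.52, SE 0.054, adjusted p 3.1e-14, edgeR). For all of them the SHP-KO libraries lay below the WT libraries.

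Of 15 further PPAR-alpha targets, 11 were higher, 1 was lower and 3 did not pass, against 35.2% higher and 35.4% lower over all tested genes. Their median log2 fold change was 0.44, against -0.58 for the 6 members outside the oxidation routes. Fabp1, a fatty acid binding protein, had 2180, 2213 and 2205 CPM in SHP-KO libraries and 126, 123 and 131 CPM in WT libraries (log2 4.11, SE 0.030, adjusted p 2.0e-97, edgeR). Fabp1 is also one of the proximal markers. Cd36, a fatty acid translocase, had 48.0, 46.7 and 48.8 CPM in SHP-KO libraries and 3.14, 3.77 and 3.63 CPM in WT libraries (log2 3.77, adjusted p 2.7e-51, edgeR), and Retsat, retinol saturase, was 2.06-fold higher. Proximal markers, at 4953 to 5074 CPM in SHP-KO and 749 to 778 CPM in WT libraries, moved in the same direction as these genes. That sum contains Fabp1 itself, at the levels given above, so the 2 are not independent. A sum without Fabp1 was not made, and the part of the segment shift in these genes was not tested.

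Partners of the receptor were divided too. Of 14 tested, 6 were higher, 4 lower and 4 did not pass, with a median of 0.11. For this list and the next, the background was again 35.2% of all tested genes higher and 35.4% lower. Rxra, the heterodimer partner of PPAR-alpha, had 157, 154 and 149.9 CPM in SHP-KO and 214, 224 and 217 CPM in WT libraries (log2 -0.51, adjusted p 5.0e-23, edgeR). Hnf4a, a nuclear receptor of enterocytes and hepatocytes, had 494, 499 and 491 CPM in SHP-KO and 817, 793 and 815 CPM in WT libraries (log2 -0.71, adjusted p 6.2e-41, edgeR), and Esrra, a nuclear receptor that drives mitochondrial genes, was higher (log2 0.54, adjusted p 1.3e-31, edgeR). Among the pyruvate dehydrogenase subunits, kinases and phosphatases that surround Pdk4, 1 of 9 was higher, 5 were lower and 3 did not pass (median -0.17). Pdp1, a phosphatase that opposes Pdk4, had 2.04, 1.86 and 2.29 CPM in SHP-KO and 10.8, 9.91 and 11.0 CPM in WT libraries (log2 -2.36, adjusted p 1.1e-20, edgeR), while Pdha1, the catalytic subunit, and Pdk1, another kinase, had log2 fold changes of -0.54 and -0.77.

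**Figure D4:**
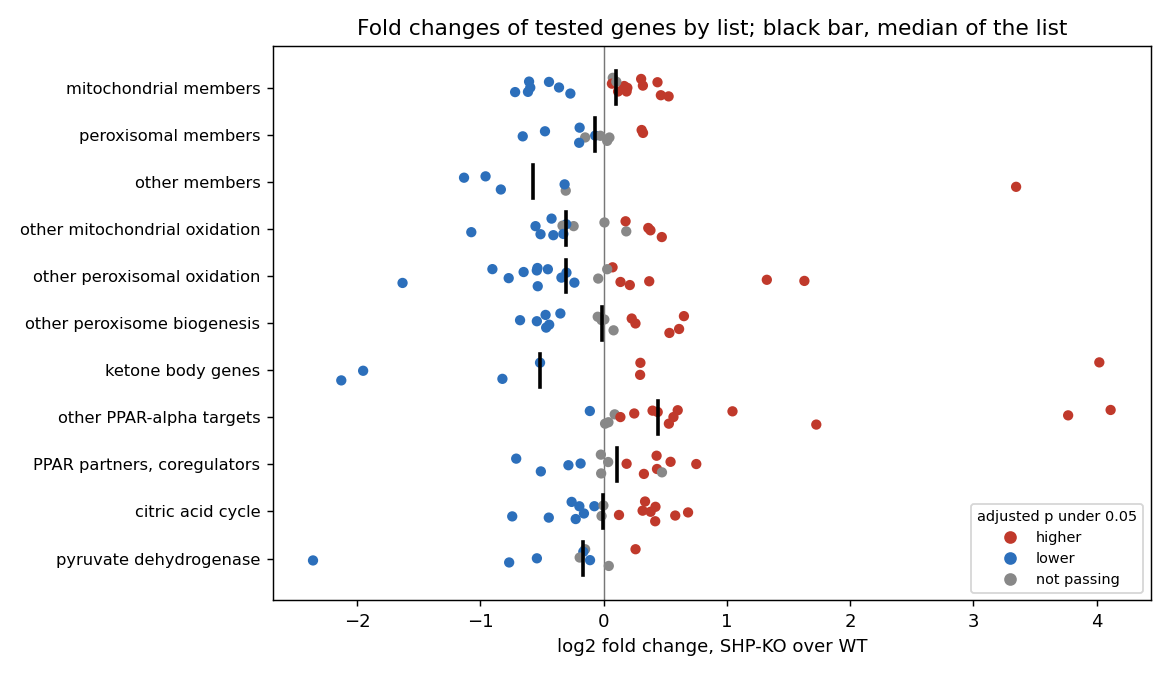
Log2 fold change, SHP-KO over WT (x axis), of each tested gene in the 3 groups of members and 8 surrounding lists (rows), coloured by whether it passed as higher or lower, with a black bar at the median of each list. Other PPAR-alpha targets have the highest median at 0.44 and the members outside the oxidation routes the lowest at -0.58.

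Promoters of the members were read for the element that PPAR-alpha and RXR bind, a direct repeat of AGGTCA with 1 base between the copies (DR1, AGGTCANAGGTCA). RefSeq promoters from 250 bases before to 50 bases after the start were found for 28 of the 37 listed genes. With up to 2 mismatches on either strand, DR1 occurred in 5 of these 28, namely Cat, Echs1, Etfa, Slc25a20 and Acox2. Counted per promoter, 5 of the 32 promoters of members held it, against 3.86% of all 32851 promoters. Of these 5 genes, Echs1, Etfa and Acox2 were lower and Cat did not pass. Slc25a20 was slightly higher, a call that was lost under several of the alternatives, as given above. Whether a match goes with a direction of change was not tested. The single copy AGGTCA, which is contained in the DR1, occurred without mismatch in 5 of 28 members (Cat, Acadm, Echs1, Acadvl and Cpt1a). Counted per promoter this was 5 of 32, against 16.3% of all promoters.

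The 250 bases before the starts of Cpt1a and Echs1 are shown because both genes were lower by at least 1.5-fold and hold a match, each on the strand of its gene. For Cpt1a (plus strand, chr19:3323051-3323300) the capitals mark AGGTCA on the opposite strand, which reads TGACCT here, at -94. For Echs1 (minus strand, chr7:140116422-140116671) the capitals mark the DR1 match AGGTCACGGGTCC at -83.

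Cpt1a: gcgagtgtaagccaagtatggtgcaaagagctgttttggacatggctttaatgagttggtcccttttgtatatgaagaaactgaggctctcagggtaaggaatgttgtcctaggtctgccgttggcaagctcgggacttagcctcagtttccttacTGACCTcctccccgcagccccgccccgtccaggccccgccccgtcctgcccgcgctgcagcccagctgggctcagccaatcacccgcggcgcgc

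Echs1: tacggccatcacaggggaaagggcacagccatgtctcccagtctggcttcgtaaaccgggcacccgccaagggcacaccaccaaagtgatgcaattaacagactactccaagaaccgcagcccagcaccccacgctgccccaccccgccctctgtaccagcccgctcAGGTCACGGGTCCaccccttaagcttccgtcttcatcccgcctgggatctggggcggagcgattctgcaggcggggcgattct

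These windows hold only the sequence next to the annotated start, so elements farther away or within introns were not read, and no match was checked for binding in these samples.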

How the data were processed

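Each library's deposited file holds raw counts per gene, which the authors made with featureCounts 1.5.2 without strand, over the exons of mm9 genes, per the file headers. The submitters' processing notes also name bcl2fastq 2.17.1.14, Trimmomatic 0.38, FastQC 0.11.5, STAR 2.6.0c and edgeR, the last without a version, for 100 bp reads. The authors' deposited table holds log2 fold changes, log2 mean CPM, p-values and FDR values. An edgeR exact test with an assumed CV of 0.2 matched its log2 fold changes and p-values to within 3.0e-15 and 6.0e-15 for all 12939 genes.

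Counts were filtered with filterByExpr (minimum count 10), scaled by TMM and tested with the robust quasi-likelihood test of edgeR 4.0.16 in R 4.3.3, with Benjamini-Hochberg adjustment over all 12106 tested genes and a threshold of 0.05. Standard errors (SE) come from that fit. CPM is scaled by TMM, and RPKM divides it by the exon length of the count files. Mean log2 CPM used a prior count of 2. The procedure was tested on simulated data in which few genes differed, as many higher as lower. That setting cannot show how it performs where 70.6% of tested genes pass, as they did here. Alternatives were DESeq2 1.42.0, limma-voom (limma 3.58.1), other scalings and filters, the exact test, a replicate block and leaving out each library.

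Members, lists and tests were chosen with earlier results of these data known. Named genes are the members, Nr0b2 and, of each surrounding list, the 3 tested genes with the smallest p, except where a reason is given. A few genes picked this way are not reported here. Coordinates of genes are mm9, and promoters are RefSeq GRCm38.p6. Sequence shared with other genes was sought in windows of 100 bases of the GENCODE transcripts. Totals of 7956528 to 13511800 counts set the precision, and reads were counted without molecular identifiers. Figures were drawn with matplotlib 3.10.9.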

Additional observations from a re-analysis of the deposited data

How the results depend on the processing

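Of 36 members, 29 kept their direction and their side of the threshold under all 15 alternatives other than the exact test. The exceptions were Slc25a20, Acadl, Hadh, Hsd17b4 and Acaa1b, whose calls changed, and Abcd3 and Cat, which never passed and whose sign turned, Abcd3 to -0.014 with no filter and Cat to -0.0093 with no scaling factors, -0.016 with a filter of at least 10 counts summed, and -0.032 with no filter. The exact test with an assumed CV of 0.2, the setting that matches the authors' deposited table, called 4483 of all genes against 8543, with 2460 higher against 4260 and 2023 lower against 4283. It called 8 members against 29, with 1 higher against 13 and 7 lower against 16. Mitochondrial members gave 0 higher against 10 and 3 lower against 7, and peroxisomal members 0 higher against 2 and 1 lower against 5. At an unadjusted p under 0.05 the same exact test of edgeR had 1 mitochondrial member higher and 4 lower, and 0 peroxisomal members higher and 2 lower. By construction it assumes more spread than these libraries show. DESeq2 called 3 peroxisomal members lower, and leaving out 1 library gave 3 to 5, the lowest without WT replicate 1. The difference of the compartment medians, 0.17, ranged between 0.13 and 0.19 when 1 library was left out, the lowest without SHP-KO replicate 2, and was 0.23 with peroxisomal enzymes only and 0.14 with mitochondrial beta-oxidation enzymes only. The cause of these shifts was not tested. Scalings and filters moved the median log2 fold change of all genes by between -0.06 and 0.0021. Replicate numbers did not pair the libraries (correlations of deviations for the same number of 0.02, 0.02 and -0.0064), and with the replicate number as a block 29 members passed and the difference of medians was 0.17. Depth limits Acot1, Acot2, Cyp4a10 and Pex11a most, and the small differences of Hadh, Hsd17b4 and Slc25a20 are near what the spread between these libraries resolves.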
